A study of Homo sapiens with 6 samples.

Results

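The 10 genes described here encode the MHC class II antigen presentation module: HLA-DRA, HLA-DRB1, HLA-DPA1, HLA-DPB1, HLA-DQA1, HLA-DQB1, HLA-DMA, HLA-DMB, CD74 and their transactivator CIITA. They were measured in CAL-27, an established human line derived from tongue squamous cell carcinoma, on 6 1-colour Agilent arrays. The study compared 3 samples of cells stably transduced with an XBP-1s-targeting shRNA (shXBP-1s) with 3 samples carrying the negative control shRNA (shCtrl), and no other treatment is named for either group. XBP-1s is the spliced, active form of X-box binding protein 1, a transcription factor of the unfolded protein response, and the comparison asked which mRNAs depended on it. Both groups came from 1 cell line, so the values speak for CAL-27 alone, and nothing in the labels says that the 3 samples of a group were separate cultures. The p-values given for genes outside the module then measure the spread between these samples, which may be technical.

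The genes were selected on the shXBP-1s against shCtrl difference seen in these arrays together with their shared function, out of 19740 genes with a probe. Their values are therefore a description and carry no p-value. All 10 genes were on the array, through 20 probes, and all 20 probes were well above background on all 6 arrays. No probe was removed by the filter on dim probes. A level is the log2 signal of a probe minus the 75th percentile of its array, so 0 marks that percentile, and a difference is the shXBP-1s mean minus the shCtrl mean on this scale. Where a gene had several probes, they were numbered from the brightest. Levels of different probes cannot be set against each other, because each probe has its own brightness.

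Class II molecules are heterodimers of an alpha and a beta chain, of the DR, DP or DQ type, that carry peptides from the endosome to the cell surface for recognition by CD4+ T cells. The invariant chain CD74 escorts the new dimer and fills its groove, and HLA-DM, made of HLA-DMA and HLA-DMB, exchanges the last piece of CD74 for a peptide. Professional antigen-presenting cells make these genes constitutively, whereas epithelial and carcinoma cells make them mainly after interferon-gamma. CIITA binds no DNA itself: it docks on RFX, CREB and NF-Y, which sit on the X and Y boxes of class II promoters, and its own level is the main switch of the whole group. XBP-1 took its name from binding to such an X box.

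Promoters are shown because these boxes are where CIITA acts. RefSeq promoter windows of GRCh38.p14, from 250 bases before to 50 bases after each gene start, were at hand for 8 of the 10 genes, and not for HLA-DRA and CIITA. Shown are 6 of the 8. Only exact matches to the letters ACNGATG and ATTGG were searched, so a box with other letters is not marked. The 2 windows of HLA-DPA1 held neither set of letters, and CD74 held both, far apart. Each line gives the gene, its place and strand, and the sequence 5′ to 3′ in the direction of the gene. Capitals mark the letters ACNGATG, the end of the X box, and the Y box letters ATTGG, or CCAAT where the Y box lies on the opposite strand.
HLA-DRB1 at chr6:32589880-32589938, minus strand: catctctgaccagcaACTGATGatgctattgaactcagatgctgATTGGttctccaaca
HLA-DQB1 at chr6:32666731-32666789, minus strand: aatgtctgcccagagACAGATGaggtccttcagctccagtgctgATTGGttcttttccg
HLA-DMA at chr6:32953162-32953221, minus strand: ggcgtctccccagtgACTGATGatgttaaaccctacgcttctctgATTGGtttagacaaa
HLA-DMB at chr6:32941031-32941127, minus strand: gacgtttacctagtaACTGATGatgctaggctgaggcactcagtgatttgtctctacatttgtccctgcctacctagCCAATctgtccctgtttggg
HLA-DQA1 at chr6:32637256-32637375, plus strand: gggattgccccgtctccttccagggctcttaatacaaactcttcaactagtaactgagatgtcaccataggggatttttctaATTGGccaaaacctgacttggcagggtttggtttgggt
HLA-DPB1 at chr6:33075840-33075959, plus strand: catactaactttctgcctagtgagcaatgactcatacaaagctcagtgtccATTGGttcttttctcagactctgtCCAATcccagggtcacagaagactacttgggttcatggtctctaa

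HLA-DRB1, HLA-DQB1 and HLA-DMA held the exact letters of both boxes in order, with 22, 22 and 23 bases between them. Whether the other windows hold boxes that differ from these letters was not searched. Their X box letters began 75, 117 and 109 bases before the gene start. Searched on both strands, ACNGATG was found in 7.65% of all 35116 promoter windows, ATTGG in 34.6%, and the ordered pair within 30 bases in 0.117%. The letters were chosen with these sequences in view, so the shares are a description. ACGTG, the core that XBP-1s binds in its known targets, occurred in 21.4% of all windows. Among the 9 windows at hand for the class II genes, it was found only in 1 of HLA-DPA1. The other HLA-DPA1 window did not hold it, and HLA-DRA and CIITA could not be searched. A match in a window is not evidence of binding, and a missing match says only that these letters are not in the window.

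The knockdown was present in every shXBP-1s sample. The XBP1 probe, which does not separate the spliced from the unspliced mRNA, had levels of 1.88, 1.85 and 1.87 on the shCtrl arrays and −0.50, −0.54 and −0.52 on the shXBP-1s arrays, a difference of −2.39 ± 0.04 (SE, n = 3 per group).

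All 20 class II and CIITA probes were lower on average in shXBP-1s, and their median difference was −0.80 (log2, shXBP-1s minus shCtrl), beside −0.022 over all 27624 tested probes. The median level of the 20 probes was −2.39, −2.34 and −2.34 on the shCtrl arrays and −3.15, −3.23 and −3.17 on the shXBP-1s arrays, so the group as a whole separated the 6 arrays. For 16 probes every shXBP-1s array lay below every shCtrl array, and for the other 4 the groups overlapped. Of all tested probes, 28.5% lay entirely lower in this way. A limma fit across all tested probes, called at a Benjamini-Hochberg adjusted p below 0.05 and at least 2-fold, counted 8 of the 20 probes as lower and 0 as higher, in 6 of the 10 genes. The same rule called 4.9% of all tested probes, and 2.61% as lower. Because these genes were chosen on this very contrast, nothing is read from the member counts against those shares. The smallest fold inside the rule was 2.08, for an HLA-DPB1 probe, and the largest outside it was 1.81, for an HLA-DQB1 probe.

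**Figure D1:**
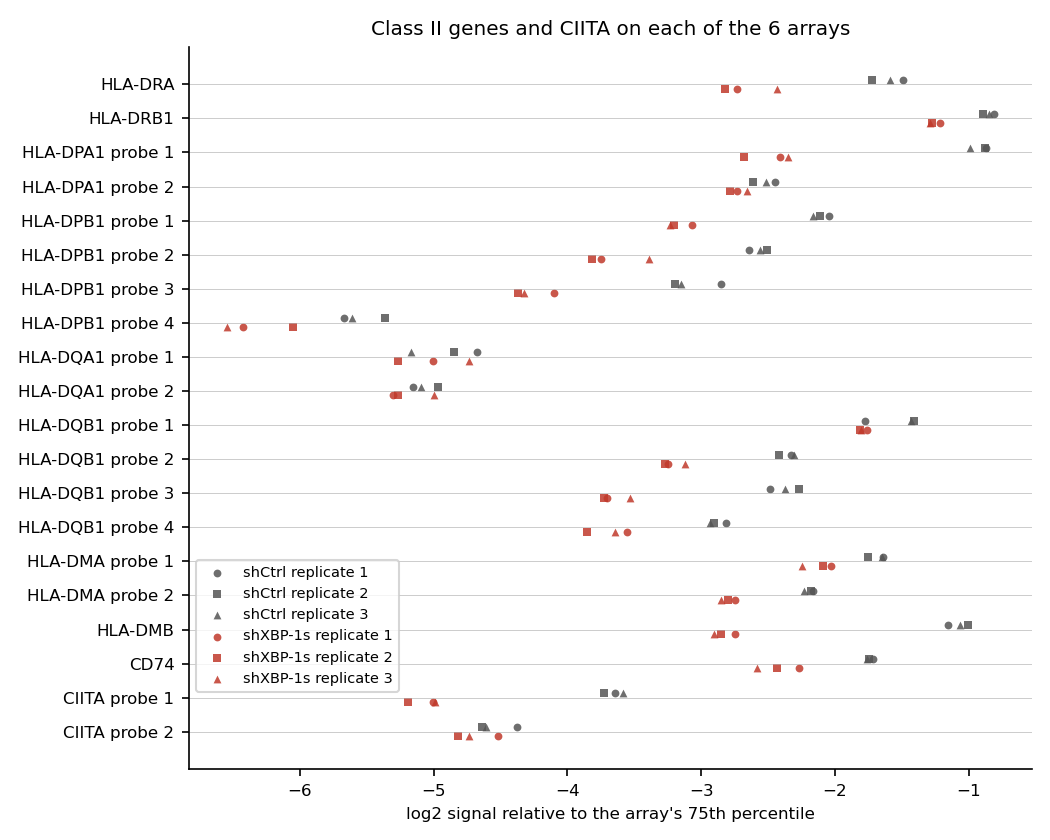
Log2 level of each of the 20 class II and CIITA probes, with the array's 75th percentile set to 0, on the 3 shCtrl arrays (grey) and the 3 shXBP-1s arrays (red), 1 point per array. The colours separate for 16 probes and overlap for HLA-DQA1 probes 1 and 2, HLA-DQB1 probe 1 and CIITA probe 2.

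CIITA, the transactivator, was represented by 2 probes that differed from each other. Probe 1 had levels of −3.64, −3.73 and −3.59 in shCtrl and −5.01, −5.19 and −4.99 in shXBP-1s. The groups lay far apart, by 1.26 between their nearest arrays, and the difference was −1.41 ± 0.10 (SE), 37.6% of the shCtrl mean. Probe 2 had levels of −4.38, −4.64 and −4.61 in shCtrl and −4.52, −4.82 and −4.74 in shXBP-1s, where the groups overlapped and the difference was −0.15 ± 0.12. Both probes are annotated to the same transcript, NM_000246, and both were dim, with unscaled signals of 55.1 to 62.9 for probe 1 and 30.6 to 33.1 for probe 2 in shCtrl. The lower level of CIITA therefore rested on 1 of its 2 probes, and the difference of that probe was −0.44 after normexp background correction with quantile normalization.

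HLA-DRA encodes the nearly invariant alpha chain of HLA-DR. Its levels were −1.49, −1.72 and −1.58 in shCtrl and −2.73, −2.82 and −2.43 in shXBP-1s. Every shXBP-1s array was lower, by −1.06 ± 0.11 in the means, or 2.09-fold. HLA-DRB1 encodes the main polymorphic beta chain that pairs with it. Its probe, printed on the array in 10 spots, had levels of −0.81, −0.89 and −0.85 in shCtrl and −1.21, −1.27 and −1.29 in shXBP-1s. The groups did not overlap and the replicates were tight, but the difference was smaller, −0.41 ± 0.05, so that the alpha and the beta chain of the same dimer differed in the size of their change. DRB genes are near-identical copies of each other, and how the HLA alleles of CAL-27 match each probe was not tested, so values of DRB and DQ probes cannot be assigned to 1 gene with certainty.

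HLA-DPA1 encodes the alpha chain of HLA-DP. Probe 1, annotated to NM_033554, had levels of −0.87, −0.87 and −0.99 in shCtrl and −2.41, −2.68 and −2.35 in shXBP-1s, a difference of −1.57 ± 0.09 or 2.97-fold. Probe 2, annotated to the transcript NM_001242524, had levels of −2.45, −2.61 and −2.51 in shCtrl and −2.73, −2.78 and −2.66 in shXBP-1s. Those groups were separated by only 0.051, and the difference was −0.20 ± 0.07. The 2 probes thus recorded changes of very unequal size, and the transcripts they are annotated to differ.

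HLA-DPB1, the beta chain of HLA-DP, had 4 probes, all annotated to NM_002121. Probe 1 had levels of −2.05, −2.11 and −2.17 in shCtrl and −3.06, −3.20 and −3.23 in shXBP-1s, a difference of −1.06 ± 0.07. Probes 2 and 3 differed by −1.08 ± 0.12 and −1.20 ± 0.12, and probe 4, the dimmest, by −0.79 ± 0.18. The arrays of the 2 groups did not overlap for any of the 4 probes. Their means were between 1.73-fold and 2.29-fold lower.

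HLA-DQA1 and HLA-DQB1 encode the chains of HLA-DQ. HLA-DQA1 probe 1 had levels of −4.68, −4.85 and −5.17 in shCtrl and −5.00, −5.27 and −4.73 in shXBP-1s. Probe 2 had levels of −5.16, −4.97 and −5.09 in shCtrl and −5.30, −5.26 and −5.00 in shXBP-1s. The groups overlapped for both probes, with differences of −0.10 ± 0.18 and −0.12 ± 0.13, and no difference was resolved at this spread. HLA-DQB1 gave a divided picture. Its probe 1, annotated to NM_002123, had levels of −1.77, −1.41 and −1.43 in shCtrl and −1.76, −1.81 and −1.80 in shXBP-1s, where shCtrl replicate 1 lay among the shXBP-1s arrays. Probes 2 and 3, both annotated to NM_001243962, differed by −0.86 ± 0.07 and −1.27 ± 0.09 without overlap. Probe 4, annotated to NM_001243961, differed by −0.80 ± 0.09, also without overlap. The lower level of HLA-DQB1 was thus seen by 3 of its 4 probes and not by the brightest.

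**Figure D2:**
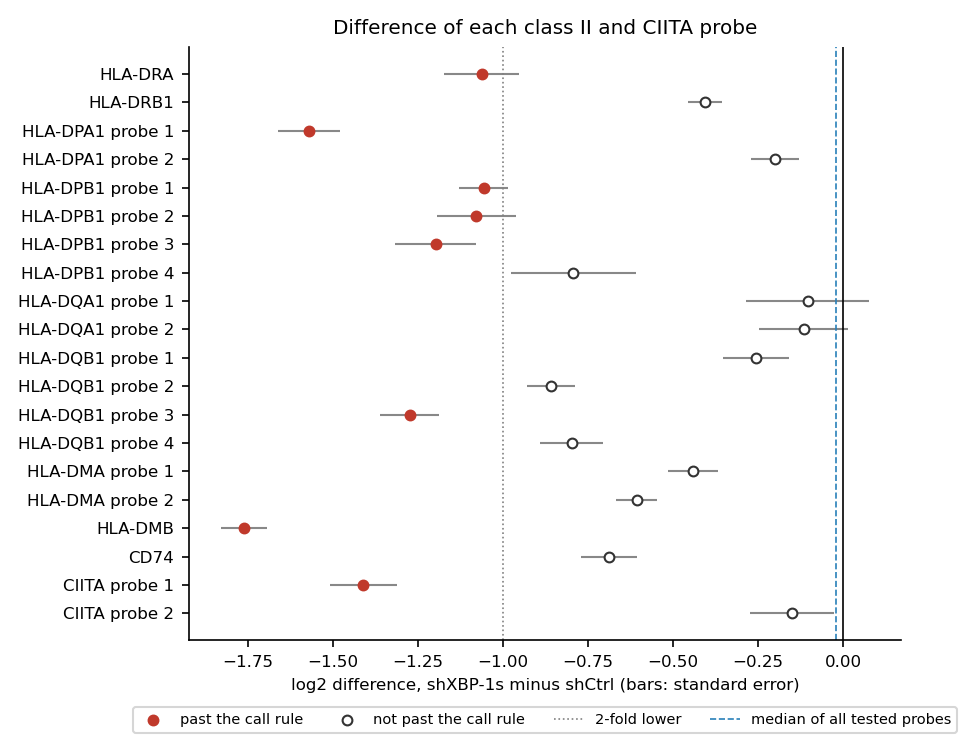
Log2 difference between shXBP-1s and shCtrl for each class II and CIITA probe with its standard error from limma (n = 3 per group). Filled points passed the call rule, 8 of 20, and all points lie left of 0, from −1.76 for HLA-DMB to −0.10 for HLA-DQA1 probe 1.

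HLA-DMB, the beta chain of the peptide exchange factor HLA-DM, differed most of the 10 genes. Its levels were −1.15, −1.002 and −1.07 in shCtrl and −2.74, −2.85 and −2.90 in shXBP-1s. The nearest arrays of the 2 groups were 1.59 apart, and the difference was −1.76 ± 0.07, 29.5% of the shCtrl mean. HLA-DMA, the alpha chain of the same factor, differed by less. Its probe 1 had levels of −1.64, −1.75 and −1.64 in shCtrl and −2.03, −2.09 and −2.25 in shXBP-1s, a difference of −0.44 ± 0.07, and its probe 2 differed by −0.61 ± 0.06, both without overlap. The promoters of both genes, printed above, hold the X box letters and Y box letters, and only that of HLA-DMA holds them close together.

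CD74, the invariant chain, had levels of −1.72, −1.74 and −1.76 in shCtrl and −2.27, −2.43 and −2.58 in shXBP-1s. The shCtrl arrays lay close together, every shXBP-1s array was lower, and the difference was −0.69 ± 0.08 or 1.61-fold. CD74 lies on another chromosome than the HLA genes, as does CIITA.

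The size of the change differed between the chains of some dimers. The alpha chain differed more than the beta chain for HLA-DR (HLA-DRB1) and HLA-DP by the brightest probes, and the beta chain more than the alpha chain for HLA-DM. Of the further DR beta genes, HLA-DRB5 (−0.90) and HLA-DRB4 (−0.73) lay nearer HLA-DRA (−1.06) than HLA-DRB1 (−0.41) did. HLA-DRB3 (−0.26) lay further from it. For HLA-DQ both brightest probes overlapped between groups, and they show no difference in size. Other probes gave other orders. HLA-DPA1 probe 2 (−0.20) differed less than every HLA-DPB1 probe. HLA-DQB1 probes 2, 3 and 4 (−0.86, −1.27 and −0.80) differed more than both HLA-DQA1 probes (−0.10 and −0.12). These pairs were compared as values only, since they are different probes.

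The arrays carried 2 scan dates, taken here as 2 slides, since no slide number was read. By this grouping shCtrl replicates 2 and 3 lay on slide 1, and shCtrl replicate 1 lay on slide 2 with the 3 shXBP-1s samples. Within slide 2, against its single control, HLA-DMB differed by −1.68, HLA-DPA1 probe 1 by −1.61, CIITA probe 1 by −1.42, HLA-DRA by −1.17 and CD74 by −0.71. These values lay close to those over both slides, whereas HLA-DQB1 probe 1 differed by −0.019 within slide 2 and by −0.26 over both. Further probes moved as well. Within slide 2 HLA-DQA1 probe 1 was at −0.33 (−0.10 over both) and CIITA probe 2 at −0.31 (−0.15). HLA-DPB1 probe 3 was at −1.41 (−1.20), HLA-DPA1 probe 2 at −0.27 (−0.20) and HLA-DQB1 probe 3 at −1.17 (−1.27). Signals were brighter overall on the shXBP-1s arrays, whose 75th percentile lay between 792.0 and 983.4 against 687.4 and 761.3 in shCtrl, and the scaling removes this. Without it, 13 of the 20 probes still had every shXBP-1s array below every shCtrl array, beside 8.37% of all tested probes. HLA-DMB then ranged from 309.4 to 380.2 in shCtrl and from 105.8 to 146.8 in shXBP-1s, in units of scanner signal. HLA-DRB1, from 391.4 to 420.5 and from 323.8 to 424.5, then overlapped, while its difference lay between −0.44 and −0.30 in all alternatives that kept a scaling.

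**Figure D3:**
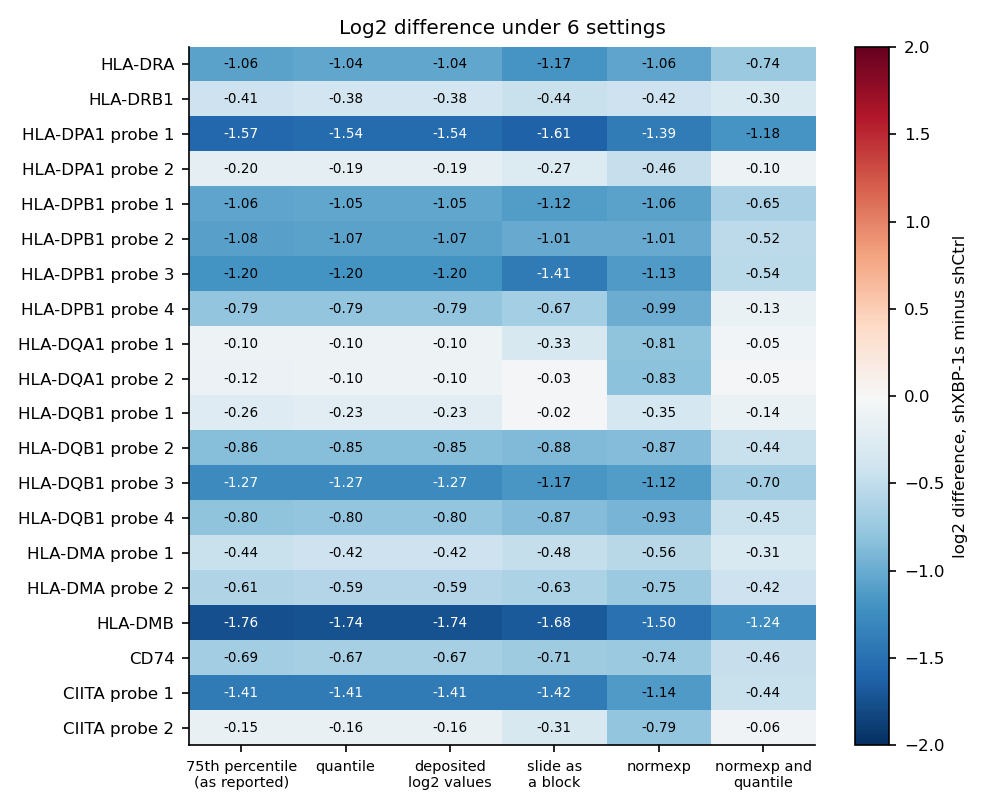
Log2 difference of each class II and CIITA probe under 6 settings, from the 75th percentile scaling used in the text to quantile normalization, the deposited log2 values, the slide as a block, and normexp background correction alone or with quantile normalization. All cells are below 0. CIITA probe 1 goes from −1.41 to −0.44 in the last column, and HLA-DMB from −1.76 to −1.24.

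The remaining class II genes of the region were 9, of which 8 were tested. HLA-DRB5 and HLA-DRB4, further DR beta genes that only some haplotypes carry, fell by 0.90 and 0.73 (SE 0.07 and 0.08, adjusted p = 2.69e-05 and 0.000221, limma with Benjamini-Hochberg adjustment over all tested probes). HLA-DRB3 fell by 0.26 (adjusted p = 0.0357), and HLA-DOB, the beta chain of the HLA-DM inhibitor HLA-DO, by 0.19 (adjusted p = 0.0300). HLA-DOB no longer passed with quantile normalization (adjusted p = 0.0563). With normexp background correction HLA-DRB4, HLA-DRB3 and HLA-DOB no longer passed (adjusted p = 0.215, 0.255 and 0.252), while HLA-DRB5 did (adjusted p = 0.00292). HLA-DQA2 (−0.30), HLA-DQB2 (−0.20), the pseudogene HLA-DPB2 (0.0092) and the brightest HLA-DOA probe (0.0080) did not pass. A second HLA-DOA probe fell by 1.33 (adjusted p = 0.00378), with levels of −4.47, −3.995 and −4.35 in shCtrl and −6.20, −5.29 and −5.33 in shXBP-1s, so HLA-DOA too was seen differently by its probes. The pseudogene HLA-DRB6 was well above background on 1 array only and was not tested. By the brightest probe, 4 of the 8 genes passed as lower and 0 as higher, with a median of −0.23, beside 27.5% lower and 18.9% higher and a median of −0.041 over all 16821 genes. None of the 8 reached 2-fold as well, beside 2.88% of all genes called lower and 2.3% called higher.

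The proteins that hold CIITA on the promoter, and its cofactors, were a list of 13 genes, all tested, of which 8 were lower and 2 higher at an adjusted p below 0.05, beside 27.5% and 18.9% of all genes. NFYB, a subunit of the Y box factor NF-Y, fell from −0.70, −0.72 and −0.64 in shCtrl to −1.83, −1.84 and −1.71 in shXBP-1s, a difference of −1.10 ± 0.06 (adjusted p = 5.41e-06), and was the 1 gene of the list past 2-fold. NFYA, another NF-Y subunit, rose by 0.75 ± 0.06 (limma adjusted p = 4.06e-05), and by 0.23 by a second probe (adjusted p = 0.0117). NFYC, the third subunit, did not pass by its brightest probe (−0.0069, adjusted p = 0.963). Its probe 2 fell by 0.24 (adjusted p = 0.0101), while its probes 3 and 4 did not pass (−0.048 and −0.043). All 3 genes of the X box factor RFX fell: RFXAP by 0.73 (adjusted p = 1.86e-05), RFXANK by 0.47 (adjusted p = 7.57e-05) and RFX5 by 0.42 (adjusted p = 0.000434), while a second RFX5 probe showed 0.0059. Of the factors that bind beside RFX, CREB1 fell by 0.50 (adjusted p = 4.49e-05) and ATF1 by 0.36 (adjusted p = 0.00534).

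Among the coactivators, the histone acetyltransferase CREBBP fell by 0.94 ± 0.08 (limma adjusted p = 7.16e-05), with levels of −0.44, −0.11 and −0.36 in shCtrl and −1.22, −1.27 and −1.23 in shXBP-1s. KAT2B, another acetyltransferase, fell by 0.24 (adjusted p = 0.0138, and 0.417 after normexp background correction). The methyltransferase CARM1 rose by 0.20 (adjusted p = 0.0120). EP300 (0.0014) and the chromatin remodeller SMARCA4 (0.041) did not pass. The median of the list was −0.36.

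Interferon-gamma is the usual inducer of CIITA, through JAK kinases and IRF1. Of 12 genes of this route, 2 passed as lower and 3 as higher, beside the same 27.5% and 18.9% of all genes, with a median of 0.12. IRF1, which binds the inducible CIITA promoter, fell by 0.71 ± 0.09 (limma adjusted p = 0.000546), and its levels of −0.36, −0.55 and −0.75 in shCtrl all lay above −1.23, −1.28 and −1.29 in shXBP-1s. The kinase JAK2 rose by 0.34 (adjusted p = 0.00106) and IRF2, a dim probe, by 0.40 (adjusted p = 0.0440). After normexp background correction JAK2 was at 0.21 (adjusted p = 0.414) and IRF2 at −0.59 (adjusted p = 0.451). That setting moved the median of all tested probes to −0.41. No interferon treatment is named in the labels.

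Of the genes that interferon-gamma induces beside class II, 9 of 10 were tested, and 5 passed as lower and 1 as higher (27.5% and 18.9% of all genes), with a median of −0.30. The guanylate-binding proteins GBP4, GBP5 and GBP2 fell by 0.68, 0.42 and 0.41 (limma adjusted p = 1.40e-05, 0.00341 and 0.00201), and the immunoproteasome subunit PSMB9 by 0.42 (adjusted p = 0.000104). GBP5 no longer passed after normexp background correction (adjusted p = 0.397). The chemokine CXCL11 went the other way. It rose from −2.18, −2.59 and −2.39 in shCtrl to −1.28, −1.03 and −0.81 in shXBP-1s, a difference of 1.34 ± 0.14 (adjusted p = 0.000139). CXCL9 was not tested, being well above background on no shCtrl array and on 2 shXBP-1s arrays.

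**Figure D4:**
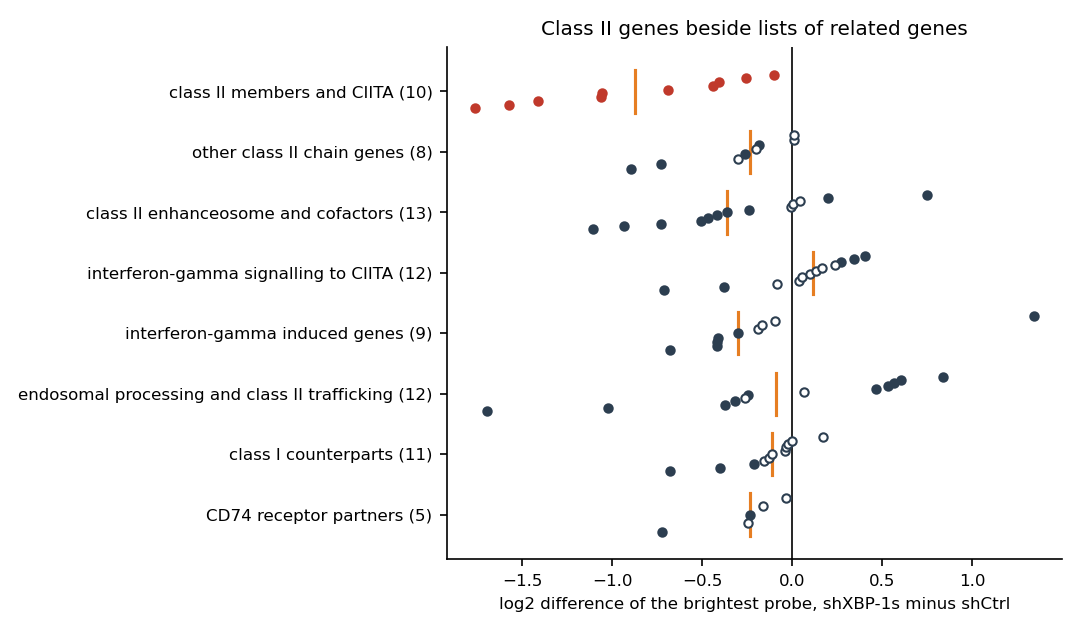
Log2 difference of each gene by its brightest tested probe, for the 10 genes of the class II module, CIITA included (red), and 7 lists of related genes. The number of genes tested is in brackets and the median of each list is an orange bar. In the 7 lists, filled points have a limma adjusted p below 0.05. The 10 module genes are all drawn filled because no test is given for them. Their median is −0.87, and the list medians run from −0.36 to 0.12.

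Class II peptides and CD74 are cut by endosomal proteases. Of 12 tested genes of this group, 5 passed as lower and 5 as higher (27.5% and 18.9% of all genes), with a median of −0.092, so the group moved in both directions. The cysteine protease CTSF fell most, from 2.89, 2.98 and 2.95 in shCtrl to 1.24, 1.27 and 1.24 in shXBP-1s, a difference of −1.69 ± 0.04 (limma adjusted p = 7.84e-07). CTSB fell by 1.03 ± 0.05 (adjusted p = 5.78e-06). CTSV rose by 0.84 and the intramembrane protease SPPL2A, which clears the stub of CD74, by 0.60 (adjusted p = 1.43e-05 and 0.000891). The ubiquitin ligase MARCHF1, which removes class II from the surface, rose by 0.56 and the asparaginyl endopeptidase LGMN by 0.53 (adjusted p = 0.000471 and 0.000859). MARCHF1 and LGMN no longer passed after normexp background correction (0.20 and 0.24, adjusted p = 0.451 for both).

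The class I counterparts gave smaller values. Of 11 genes, 3 passed as lower and 0 as higher, close to the 27.5% of all genes that passed as lower, none was 2-fold, and the median was −0.11. TAP2, a chain of the peptide transporter, fell by 0.68 by its brightest probe (limma adjusted p = 7.20e-05), while a dim second probe showed 0.026 (adjusted p = 0.937). The immunoproteasome subunit PSMB8 fell by 0.40 (adjusted p = 0.00245). NLRC5, the class I counterpart of CIITA, did not pass by either probe (−0.042 and −0.30). CD74 also serves as a surface receptor for the cytokine MIF. Of its 5 partners in that role, CXCR2 fell by 0.72 (adjusted p = 0.000759) and CD44 by 0.24 (adjusted p = 0.0333, and 0.116 after quantile normalization), and MIF itself was at −0.16 (adjusted p = 0.106). Over the 7 lists together, 29 of 70 tested genes passed as lower and 11 as higher, beside 27.5% and 18.9% of all genes, and 3 were called lower and 1 higher, near the 2.88% and 2.3% of all genes.

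Most class II genes lie side by side on the short arm of chromosome 6, so the other genes between HLA-DRA and HLA-DPB1 in the RefSeq order were set beside them, a choice made after values had been seen. Of the 5 tested there that are not class II genes, 5 were lower, beside 9251 of all 16821 genes. As lower, 3 passed, beside 27.5% of all genes: TAP2, PSMB9 and PSMB8, given above. BRD2, a bromodomain protein, was at −0.26 (limma adjusted p = 0.0628) and TAP1 at −0.036 (adjusted p = 0.612). None of the 5 reached 2-fold.

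The label of the line was checked against 7 squamous epithelial markers, all well above background on all 6 arrays. KRT5, KRT14 and KRT17 rose by 1.43, 1.58 and 1.53 (limma adjusted p = 1.09e-06, 3.32e-06 and 1.55e-06) and none of the list fell. The sum of their brightest probes, counted in multiples of the array's 75th percentile, came mostly from SFN, CDH1 and EPCAM and lay between 101.5 and 108.0 in shCtrl and between 133.9 and 158.0 in shXBP-1s. Of 9 markers of professional antigen-presenting cells and leukocytes, which carry class II constitutively, 8 had a probe and 7 were well above background on all 6 arrays by their brightest probe, so a signal above background did not separate cell types here. Their sum on the same scale, mostly CD79A, lay between 13.9 and 16.8 in shCtrl and between 15.03 and 15.34 in shXBP-1s, so the groups overlapped. The B cell marker CD79A was at 0.19, the leukocyte marker PTPRC at 0.053 and CD14 at −0.84 (limma adjusted p = 0.0170, 0.722 and 0.00110), CSF1R rose by 1.04, and CD1C was not well above background on any array. The part of these genes in the class II result was not tested. In bulk RNA, fewer cells that make class II mRNA and less class II mRNA per cell cannot be told apart.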

How the data were processed

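Total RNA of 3 shCtrl and 3 shXBP-1s samples was hybridised to 1-colour Agilent arrays with Cy3, although the labels describe a NimbleGen labelling procedure. The authors deposited Agilent Feature Extraction 11.0.1.1 output, whose spot intensity is background-subtracted and not normalized between arrays. They also deposited log2 values with equal medians (6.27) and quartiles on every array, for which the submitters' processing notes name RMA, and these served only as an alternative.

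Spots with non-uniformity or population outlier flags (230 to 377 per array) were dropped. Log2 signals were scaled to each array's 75th percentile and averaged over the spots of each probe. Of 34127 probes, 25771 received a symbol by matching their annotated transcript to RefSeq. Between 82.1% and 84.8% of spots were well above background and none was saturated. Tested were the 27624 probes well above background in every replicate of shCtrl, of shXBP-1s or of both, with limma 3.58.1 in R 4.3.3 (lmFit, eBayes with trend), 2-sided, Benjamini-Hochberg adjusted over all of them. Scripts were checked on simulated data.

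The class II genes and all lists were chosen with earlier results of these data known. Also named were XBP1, every promoter complex and further class II gene and, from each other list, called genes and up to 4 more of the largest difference past the adjusted p, each by its brightest tested probe. NLRC5, MIF, CXCL9 and the chromosome 6 neighbours were added after their values were seen. MARCHF8, CD63 and LYZ had no probe. Some genes of the lists are counted but not reported here by name. Positions are on GRCh38.p14, while the array annotation names hg19. Alternatives covered background correction (normexp, offset 50), scaling, the deposited values, filters, the variance trend, the methods' t-test, the minimum fold, blocks, probe averaging and leaving out each array. The count without scaling between arrays was added after seeing the data.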

Additional observations from a re-analysis of the deposited data

How the results depend on the processing

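Of the 20 class II and CIITA probes, 19 stayed lower in shXBP-1s in the 11 alternatives that change the differences at all. The others alter only the test or the filter. HLA-DQA1 probe 1 did not: it was at 0.0069 without shCtrl replicate 1 and at 0.030 without shXBP-1s replicate 2. Normexp moved the median of all tested probes to −0.41, so its differences are to be read against that shift. It gave 473 called probes in all in place of 1354, 5 class II probes in place of 8 and a class II median of −0.90 in place of −0.80. CIITA probe 1 (−1.14) and 2 HLA-DPB1 probes no longer counted among the called probes there. Normexp followed by quantile normalization gave 357 probes, 2 class II probes (HLA-DPA1 and HLA-DMB), 2 class II genes by the brightest probe in place of 5, a median of −0.44 and 2 related genes in place of 4. The methods' t-test, which asks for no minimum fold, called 12133 probes, 16 class II probes, 8 class II genes and 41 related genes unadjusted, and 9209, 15, 8 and 35 after Benjamini-Hochberg adjustment. limma without a minimum fold called 11516, 15, 8 and 40. Averaging all probes of each gene called 3 class II genes. The cause of these changes was not tested. Of 92 alternative values for the counts and the median, 69 stayed close to those reported and 23 moved, and none changed direction.

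Leaving out each array in turn gave 1253 to 1695 called probes, 6 to 8 class II probes, 4 to 5 class II genes by the brightest probe, a median of −0.82 to −0.75 and 3 to 4 related genes. Without shXBP-1s replicate 2, HLA-DRA (−0.98) and an HLA-DPB1 probe (−0.997) fell just short of 2-fold. With the replicate number as a block, 1381 probes, 8 class II probes, 5 class II genes and 4 related genes were called. Same-numbered samples had deviations from their group means that correlated at −0.016, 0.117 and −0.116. No pairing by number was seen, but with 3 samples per group these values cannot exclude it. With slide as a block, where shCtrl replicate 1 is the single link between groups, 1359 probes and the same number of class II probes, 8, were called. Of 50 related or marker genes past the adjusted p, 47 stayed past it in the same direction with quantile normalization and with the deposited values, 45 with normexp and quantile normalization and 34 with normexp. IRF2 changed sign, with normexp. Dim probes such as those of CIITA and HLA-DQA1 have the least signal over background, and 3 arrays per group limit what could be resolved.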
